A study of Arabidopsis thaliana with 6 samples.

Results

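Ethylene response factors are plant transcription factors with a single AP2-type DNA-binding domain. The 10 genes described here are ERF1, ORA59, ERF1A, ERF2, ERF13, ERF5, ERF6, ERF104, ERF105 and RRTF1, taken by their locus identifiers from the 33602 loci of the count files. 9 of them belong to group IX of the family, which has 17 genes, and RRTF1 (ERF109) is placed in group X in the usual family classification. They were measured by RNA sequencing in 3 msh1 memory plants (numbers 31, 32 and 33) and in 3 wild type plants (22, 23 and 24), each plant being its own library. All 6 plants were of the Columbia-0 accession, and the memory line is described as isogenic with the wild type. After 2 days of cold stratification at 4 °C the pots stood at 22 °C in 120 to 150 µmol of light per square metre per second, and entire plants were frozen when they began to bolt. The memory line is named for MSH1, a MutS-type protein of plastids and mitochondria. How the line was derived, how many generations separate it from the event it is named for, and the hour of harvest were not found in the labels.

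As background, ethylene is made from S-adenosylmethionine by ACC synthases and ACC oxidases and is sensed by receptors that keep the kinase CTR1 active in its absence. When the gas binds, EIN2 and the transcription factor EIN3 act, and EIN3 switches on ERF1. Group IX factors bind the GCC box, whose core reads GCCGCC, and many of them also respond within minutes to jasmonate, wounding, touch, cold or pathogens. Members of subgroup IXc (ERF1, ORA59) and subgroup IXa (ERF1A, ERF2, ERF13) are known as activators of defence genes such as the plant defensin PDF1.2. Members of subgroup IXb (ERF5, ERF6, ERF104, ERF105) are known for rapid stress responses and, for ERF6 and ERF104, as substrates of the mitogen-activated protein kinases MPK3 and MPK6.

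The promoters of 4 members and of a sister gene are printed first, because they hold the motifs to which the results return. Each is the 300 bases before the annotated gene start, read 5′ to 3′ on the gene's strand from the RefSeq copy of assembly TAIR10.1. Capitals mark the GCC box (GCCGCC), the G-box (CACGTG), which bHLH and bZIP factors bind, and the W-box (TTGACC or TTGACT), which WRKY factors bind. All motifs were searched on both strands, and none of these motifs overlaps another in the sequences shown. ORA59 (chr1:1882607-1882906, + strand) was the 1 member with a GCC box, and its sister ERF15 (chr2:13307573-13307872, - strand) is shown because it has the same pair of motifs.
ORA59: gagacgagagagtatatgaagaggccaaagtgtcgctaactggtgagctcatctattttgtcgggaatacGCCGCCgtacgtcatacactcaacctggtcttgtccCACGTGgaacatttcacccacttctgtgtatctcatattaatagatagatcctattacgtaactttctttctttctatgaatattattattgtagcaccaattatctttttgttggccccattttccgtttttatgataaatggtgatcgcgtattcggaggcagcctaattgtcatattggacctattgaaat
ERF15: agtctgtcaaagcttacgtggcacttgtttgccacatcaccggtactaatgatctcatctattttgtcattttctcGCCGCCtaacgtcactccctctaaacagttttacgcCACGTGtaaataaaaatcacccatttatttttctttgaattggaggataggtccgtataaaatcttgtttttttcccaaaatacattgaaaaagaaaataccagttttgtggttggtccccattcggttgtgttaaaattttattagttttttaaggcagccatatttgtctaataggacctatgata
In both genes a GCC box was followed by a G-box that started 36 bases further on, and from the start of the first to the end of the second 28 of 42 bases (66.7%) were identical. Over the whole windows, aligned on the GCC box, 118 of 294 bases (40.1%) were identical, where base composition alone gives 26.9%. Both counts include the bases of the GCC box and the G-box, for which ERF15 was picked, so they overstate the likeness outside the motifs.

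The G-box was found in 4 of the 10 members (40% of them) and in 7.09% of the 27443 promoters of protein-coding genes of the same length, and the other 8 genes of group IX had it in 3 (37.5%). ERF1A (chr4:9758903-9759202, + strand), ERF2 (chr5:19172957-19173256, - strand) and RRTF1 (chr4:16451576-16451875, + strand) are shown because the bases around their G-boxes are alike.
ERF1A: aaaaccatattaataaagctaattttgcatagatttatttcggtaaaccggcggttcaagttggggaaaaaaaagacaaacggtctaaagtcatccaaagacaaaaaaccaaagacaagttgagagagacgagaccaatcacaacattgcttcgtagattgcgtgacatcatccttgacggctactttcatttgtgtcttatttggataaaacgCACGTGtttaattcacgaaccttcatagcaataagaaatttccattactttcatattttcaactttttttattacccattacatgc
ERF2: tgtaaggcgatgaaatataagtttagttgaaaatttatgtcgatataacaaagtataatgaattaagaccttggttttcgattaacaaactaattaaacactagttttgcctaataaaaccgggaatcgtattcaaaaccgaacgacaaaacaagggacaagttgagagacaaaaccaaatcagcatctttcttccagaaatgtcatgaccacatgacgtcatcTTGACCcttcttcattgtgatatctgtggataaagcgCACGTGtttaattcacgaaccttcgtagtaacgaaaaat
RRTF1: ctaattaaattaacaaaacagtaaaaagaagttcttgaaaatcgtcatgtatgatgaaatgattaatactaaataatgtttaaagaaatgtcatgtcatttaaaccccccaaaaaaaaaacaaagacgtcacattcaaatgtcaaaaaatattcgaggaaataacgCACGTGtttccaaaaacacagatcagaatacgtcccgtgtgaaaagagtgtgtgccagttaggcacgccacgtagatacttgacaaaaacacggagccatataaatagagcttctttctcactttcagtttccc
The identical run around the G-box was 26 bases long between ERF1A and ERF2, 13 bases between ERF1A and RRTF1 and 11 bases between ERF2 and RRTF1. The W-box was found in 3 of the 10 members (ERF2, ERF5 and ERF105) and in 32.3% of all promoters. The element CGCGTT, which calmodulin-binding CAMTA factors bind, was found in 0 of the 10 members and in 3.08% of all promoters. The GCC box was found in 2.26% of all promoters. A match describes the letters in this window and does not show that a factor binds there.

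**Figure D1:**
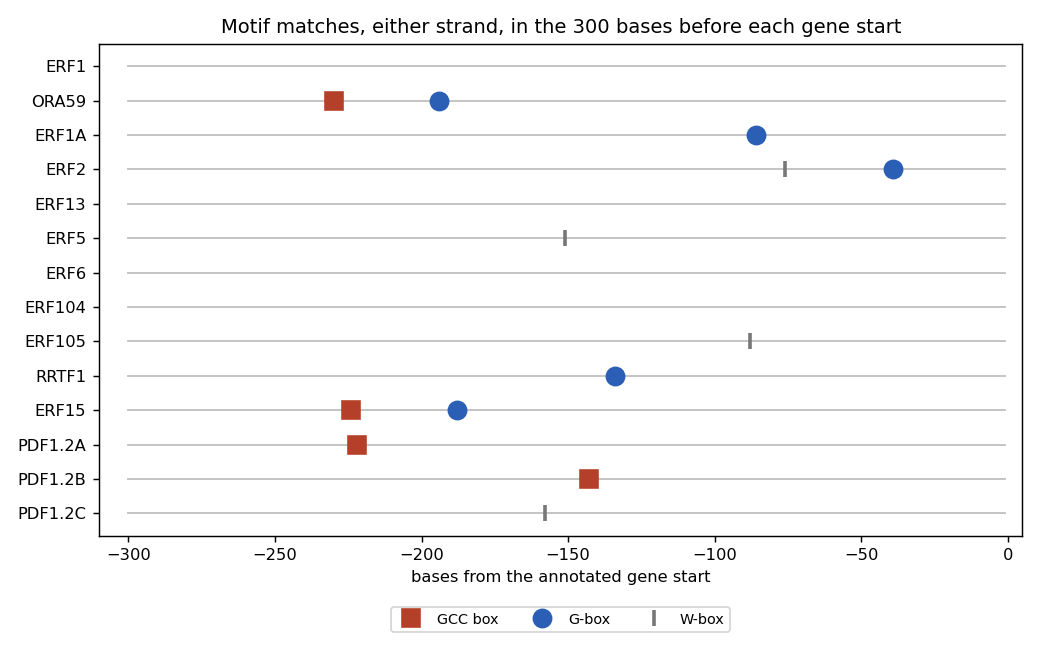
Position of each GCC box, G-box and W-box match on either strand, in bases from the annotated gene start (horizontal axis), for the 10 members, ERF15 and 3 PDF1.2 genes (rows). ORA59 and ERF15 have the GCC box and the G-box at nearly the same distances, and ERF1, ERF13, ERF6 and ERF104 have none of the motifs in this window.

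Every member was present at a low level. The 6 libraries held 4060216 to 5806617 reads, so that 1 CPM (counts relative to library size, scaled by the trimmed mean of M values, TMM) stood for about 4 to 6 reads, and a count of 0 in a library allowed up to 0.517 to 0.739 CPM (3 counts, counting error only). The members together summed to 25.1, 29.7 and 24.2 CPM in memory plants 31, 32 and 33, against 119.9, 78.9 and 233.3 CPM in wild type plants 22, 23 and 24. The groups did not overlap in this sum, and plant 24 stood highest. In these bulk samples, fewer cells of a type and less RNA per cell cannot be told apart.

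Of the 10 members, 8 had enough reads to be tested, and 5 of them (ORA59, ERF1A, ERF2, ERF5 and ERF105) were lower in memory plants by edgeR's quasi-likelihood test at an adjusted p under 0.05, adjusted over all 16928 genes tested. None was higher. Over all genes tested, 1.37% were called lower and 0.449% higher. The median log2 fold change of the 8 tested members, memory minus wild type, was -2.49, and that of all genes tested was 0.0080. 6 of the 8 passed the filter on low counts with the help of wild type plants, where they are high. ERF2 and ERF104 would have passed on the 3 memory plants alone. The groups did not overlap, with memory lower, in 9 of the 10 members, all but ERF13, against 8.59% of all loci with a read.

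**Figure D2:**
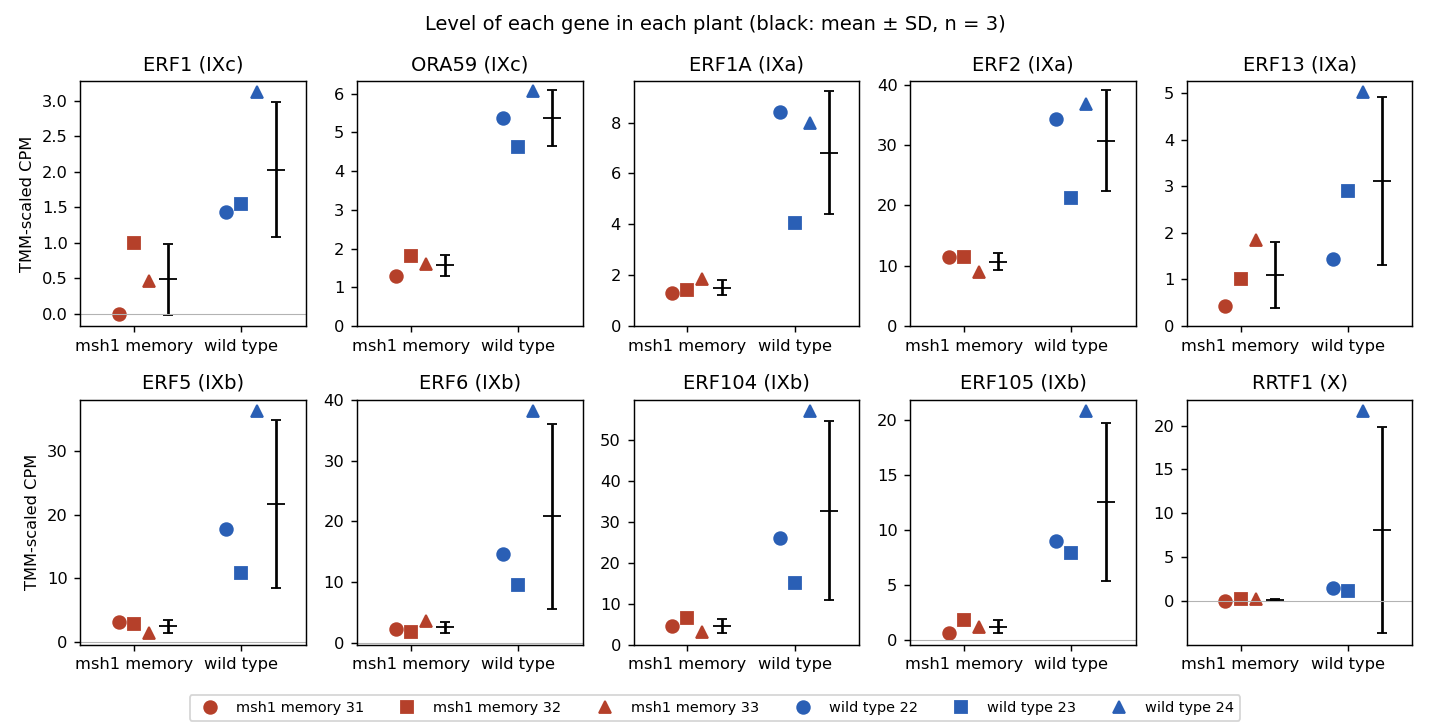
Level of each member in each plant in TMM-scaled CPM (vertical axes, 1 scale for each gene), with memory plants on the left and wild type plants on the right and the mean ± SD of 3 plants beside them. In 9 of the 10 panels every memory plant lies below every wild type plant, and in 9 of the 10 plant 24 is the highest plant. The lower end of the RRTF1 error bar falls below 0 because plant 24 lies far above the other wild type plants.

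Subgroup IXc holds the regulators at which ethylene and jasmonate signals meet. ORA59 (AT1G06160, chr1:1882907-1883992), the main known activator of PDF1.2 under both hormones, had 1.28, 1.81 and 1.61 CPM in memory plants 31, 32 and 33, against 5.38, 4.63 and 6.08 CPM in wild type plants 22, 23 and 24. The groups were far apart and the wild type plants close together. Its mean was 1.57 ± 0.267 CPM in memory plants and 5.36 ± 0.724 CPM in wild type plants (SD, n = 3 each). The log2 fold change was -1.76 (SE 0.39, adjusted p = 0.0434 by edgeR). Without plant 24 the call was lost (log2 fold change -1.66, edgeR adjusted p = 0.118). It was also lost without plant 22 (edgeR adjusted p = 0.114) and without memory plant 31, 32 or 33 (0.232, 0.143 or 0.176). ORA59 was past the threshold in 5 of 12 alternative analyses.

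ERF1 (AT3G23240, chr3:8295617-8296604), the direct target of EIN3, had too few reads for the test. It had 0, 1.003 and 0.461 CPM (0, 5 and 2 reads) in memory plants, against 1.44, 1.54 and 3.12 CPM (8, 8 and 18 reads) in wild type plants. All memory plants lay below all wild type plants, and the pooled level in wild type was 3.94 times that in memory plants (95% exact interval 1.72 to 10.5, counting error only). Without plant 24 this ratio was 2.83 (1.1 to 8.13). In the fit with no filter on low counts, its log2 fold change was -1.99 (SE 0.80, edgeR adjusted p = 0.315).

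Subgroup IXa holds ERF1A, ERF2 and ERF13. ERF2 (AT5G47220, chr5:19171643-19172956), a GCC-box activator, was the most precisely measured member. It had 11.5, 11.4 and 8.99 CPM in memory plants, against 34.3, 21.2 and 36.8 CPM in wild type plants. The highest memory plant lay well below the lowest wild type plant, which was plant 23. Its mean was 10.65 ± 1.43 CPM in memory plants and 30.8 ± 8.37 CPM in wild type plants (SD, n = 3 each), with a log2 fold change of -1.53 (SE 0.23, edgeR adjusted p = 0.00626). It was past the threshold in 9 of 12 alternative analyses, the most of any member.

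ERF1A (AT4G17500, chr4:9759203-9760391, ERF-1 in the annotation), also a GCC-box activator, had 1.28, 1.40 and 1.84 CPM in memory plants, against 8.44, 4.05 and 7.98 CPM in wild type plants. It was the 1 member whose highest plant was plant 22 rather than 24. Its log2 fold change was -2.17 (SE 0.42, edgeR adjusted p = 0.0222), and without plant 24 it was -2.04 (edgeR adjusted p = 0.0666). ERF1A was past the threshold in 6 of 12 alternative analyses.

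ERF13 (AT2G44840, chr2:18495215-18496327), a jasmonate- and wound-responsive member of the same subgroup, had 0.426, 1.003 and 1.84 CPM in memory plants, against 1.44, 2.89 and 5.03 CPM in wild type plants. The groups overlapped, since memory plant 33 lay above wild type plant 22. Its log2 fold change of -1.52 (SE 0.62) did not pass the test (edgeR adjusted p = 0.328), and it rests on 2, 5 and 8 reads in memory plants and 8, 15 and 29 reads in wild type plants.

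The 4 members of subgroup IXb showed the largest log2 fold changes of the tested members. ERF107, of the same subgroup but not a member, had a smaller one of -1.03, and the group IX gene ERF106 had -0.27. ERF105 (AT5G51190, chr5:20800473-20801437), a cold-responsive factor, had 0.639, 1.81 and 1.15 CPM in memory plants, against 8.97, 7.91 and 20.8 CPM in wild type plants. Its lowest wild type plant was 4.38 times as high as its highest memory plant, and the log2 fold change was -3.36 (SE 0.50, edgeR adjusted p = 0.0072). All 965 of its exon bases lie within exons of AT5G51180 on the opposite strand, and the library kit does not mark strand, so reads of the 2 genes cannot be told apart with certainty. AT5G51180 itself had 23.5, 23.7 and 24.2 CPM in memory plants, against 21.7, 30.3 and 31.6 CPM in wild type plants (log2 fold change -0.23, edgeR adjusted p = 0.648).

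ERF5 (AT5G47230, chr5:19179881-19181182), which with ERF6 is known to restrict leaf growth under osmotic stress, had 3.20, 2.81 and 1.38 CPM in memory plants, against 17.8, 10.8 and 36.3 CPM in wild type plants. Every memory plant lay under every wild type plant, with plant 24 the highest. Its mean was 2.46 ± 0.955 CPM in memory plants and 21.6 ± 13.2 CPM in wild type plants (SD, n = 3 each), with a log2 fold change of -3.11 (SE 0.52, edgeR adjusted p = 0.0222).

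ERF6 (AT4G17490, chr4:9752824-9754161) had 2.35, 1.81 and 3.69 CPM in memory plants, against 14.7, 9.64 and 38.2 CPM in wild type plants. ERF104 (AT5G61600, chr5:24766344-24767732) had 4.48, 6.42 and 3.00 CPM in memory plants, against 26.0, 15.04 and 57.3 CPM in wild type plants. In both genes the groups were separate and the wild type plants were widely spread. Their log2 fold changes of -3.01 (SE 0.61) and -2.81 (SE 0.59) did not pass the test (edgeR adjusted p = 0.0623 and 0.0879). Leaving out plant 24 or plant 23 moved both past the threshold, and leaving out plant 22 moved neither (edgeR adjusted p = 0.0777 for ERF6 and 0.139 for ERF104). The adjusted p was 0.0121 for ERF6 and 0.00869 for ERF104 without plant 24, at smaller log2 fold changes of -2.22 and -2.13, and 0.00839 for each without plant 23 (edgeR).

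RRTF1 (AT4G34410, chr4:16451876-16453260), a redox-responsive factor linked to reactive oxygen, had 0, 1 and 1 reads in memory plants, against 8, 6 and 125 reads in wild type plants. In CPM these were 0, 0.201 and 0.231 in memory plants, against 1.44, 1.16 and 21.7 in wild type plants. Most of its reads thus came from plant 24, and it was not tested. The pooled level in wild type was 56.4 times that in memory plants (95% exact interval 15.3 to 470.6), and without plant 24 it was 8.66 times (1.99 to 78.5). These intervals cover counting error only, not the spread between plants. DESeq2 gave an adjusted p of 0.0438, and edgeR with no filter gave 0.478. On the opposite strand, 661 of its 1385 exon bases also lie in the non-coding RNA AT4G08985 and 226 in exons of AT4G34412.

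Wild type plants differed among themselves in these genes. No difference between the subgroups was tested, and their values are given side by side. The level in plant 24 was 2.47 to 3.13 times the mean of plants 22 and 23 in the 4 members of subgroup IXb. It was 1.28 (ERF1A) to 2.33 times (ERF13) that mean in the members of subgroup IXa, and 1.21 (ORA59) and 2.098 times (ERF1) in those of subgroup IXc. In ERF107, of subgroup IXb but not a member, it was 1.16 times that mean, and in ERF106 0.908 times. RRTF1 reached 16.7 times. Plant 24 was the highest of all plants in 9 of the 10 members and in 18% of all genes tested. The lowest wild type plant was plant 23 in 8 of the 10 members, all but ERF1 and ERF13. How often this holds over all genes was not counted, so it cannot be called particular to the members. Plant 23 also stood apart from the other plants on the first principal component.

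The mean of plants 22 and 23 lay above the memory mean in every member. This mean over the memory mean was 1.98 in ERF13, 2.61 in ERF2, 3.05 in ERF1, 3.20 in ORA59, 4.14 in ERF1A, 4.43 in ERF104, 4.66 in ERF6, 5.799 in ERF5, 7.04 in ERF105 and 9.02 in RRTF1. Without plant 24, 5 of the 7 members still tested were called lower (ERF2, ERF5, ERF6, ERF104 and ERF105, edgeR), against 1.09% of all genes. Without plant 22, 3 of 8 were called lower (ERF2, ERF5 and ERF105), against 1.04% of all genes. Without plant 23, 7 of 7 were called lower, against 3.27% of all genes. Without any 1 of the memory plants 31, 32 and 33, none of 8 was called by edgeR, and 0.139%, 0.302% and 0.186% of all genes were called lower. Without memory plants 31, 32 and 33 in turn, the lowest adjusted p of a member was 0.0574, 0.0508 and 0.0752. The test also mattered, since DESeq2 called 8 of 10 members lower (2.19% of all genes), and limma voom called 1 of 8, ERF2 (0.963% of all genes). With other settings of edgeR, 4 of 8 were called with library totals (1.03% of all genes lower), 5 of 10 with no filter (1.48%), 7 of 8 without robust estimation (1.36%) and, in a setting chosen after seeing the data, 6 of 10 with no filter and without plant 24 (1.42%).

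**Figure D3:**
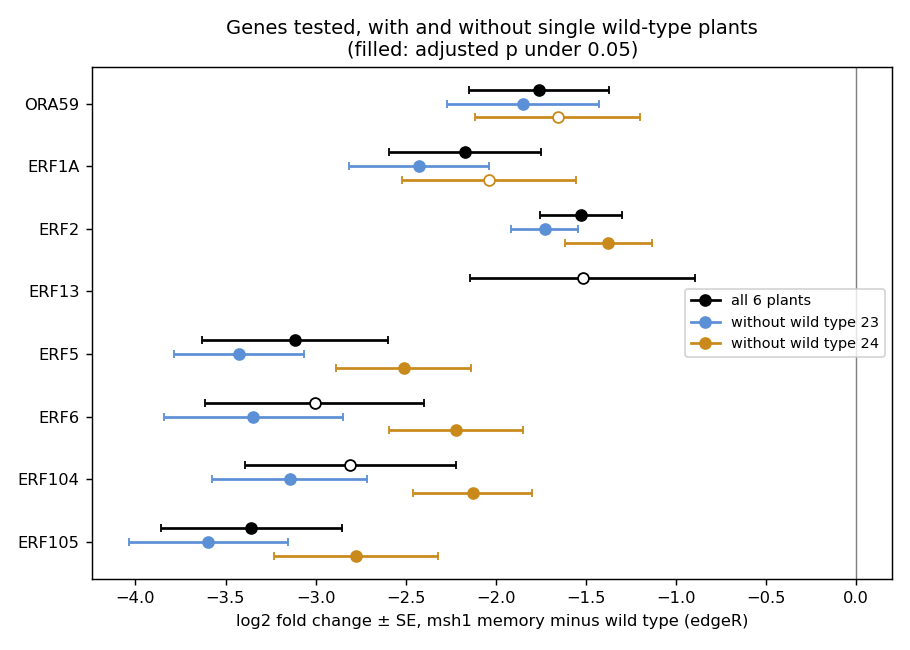
Log2 fold change ± SE (horizontal axis, memory minus wild type, edgeR) of the 8 tested members with all 6 plants and without wild type plant 23 or 24. Filled points have an adjusted p under 0.05. Every value shown is below 0, the values without plant 24 lie nearest to 0, and ERF13 was not tested without plant 23 or 24.

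Levels of different members were compared per kilobase of exon. In memory plants ERF2 was the highest at 8.10 ± 1.09 CPM per kb, followed by ERF104 at 3.33 ± 1.24, ERF6 at 1.95 ± 0.725 and ERF5 at 1.89 ± 0.734 CPM per kb (SD, n = 3 each). Then came ORA59 at 1.44, ERF1A at 1.27, ERF105 at 1.24, ERF13 at 0.981, ERF1 at 0.494 and RRTF1 at 0.104 CPM per kb. The gap between ERF2 and ERF104 was the one gap between neighbours in this order that exceeded the sum of their SDs.

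In wild type plants ERF104 (23.6 ± 15.8 CPM per kb) and ERF2 (23.4 ± 6.37) stood level at the top (SD, n = 3 each). ERF5 followed at 16.6, ERF6 at 15.6, ERF105 at 13.02, RRTF1 at 5.84, ERF1A at 5.74, ORA59 at 4.94, ERF13 at 2.80 and ERF1 at 2.06 CPM per kb. No neighbours in this order differed by more than the sum of their SDs.

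The share of single genes in the members' reads is given as a description. ERF2 made up 45.8%, 38.5% and 37.1% of the members' reads in memory plants, against 28.6%, 26.9% and 15.8% in wild type plants. The groups did not overlap, and the mean share was 40.5% ± 4.63 in memory plants and 23.75% ± 6.96 in wild type plants (SD, n = 3 each). The 4 members of subgroup IXb together made up 42.4%, 43.2% and 38.1% in memory plants, against 56.3%, 55.0% and 65.4% in wild type plants. These shares, chosen after the values were seen, rest on 105 to 148 reads in a memory plant and 409 to 1344 reads in a wild type plant. For each share the two-sided exact permutation test gave p = 0.1, the smallest that 3 plants against 3 allow. Any share with separate groups gives this value, so it adds nothing to the separation already seen. The shares are parts of the same total and are not independent.

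Of the 8 other genes of group IX, 3 had enough reads to be tested, and 1 of them fell. ERF107 (AT5G61590), a factor of subgroup IXb known as DEWAX for its repression of wax genes, lies 832 bases from ERF104 on the same strand. It had 51.8, 60.0 and 45.2 CPM in memory plants, against 110.7, 93.1 and 117.8 CPM in wild type plants. The groups were separate, plant 24 stood little above plants 22 and 23, and the log2 fold change was -1.03 (SE 0.16, edgeR adjusted p = 0.00626). It was called in 10 of 12 alternative analyses, the exceptions being those without plant 31 (adjusted p = 0.0733) and without plant 33 (0.0691).

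ERF15 (AT2G31230), the sister of ORA59 whose promoter is printed above, had 22.2, 23.3 and 24.9 CPM in memory plants, against 20.5, 25.6 and 18.9 CPM in wild type plants. These values overlapped, with a log2 fold change of 0.11 (SE 0.17, edgeR adjusted p = 0.843), while ORA59 with the same spacing of GCC box and G-box fell. ERF106 (DEWAX2) averaged 40.0 ± 5.74 CPM in memory plants and 48.2 ± 3.54 CPM in wild type plants (SD, n = 3 each; log2 fold change -0.27, edgeR adjusted p = 0.508). ERF091, ERF095 (ESE1), ERF096 and ERF14 had 0 reads in every plant, and ERF098 (TDR1) had 0 to 6.

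None of the 7 group X relatives of RRTF1 had enough reads to be tested. RAP2.6L, a wound- and stress-responsive member, was chosen for mention after its values were seen. It had 0.213, 0.201 and 0 CPM in memory plants, against 2.51, 0.964 and 1.04 CPM in wild type plants (edgeR with no filter, adjusted p = 0.129).

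Several members lie close together on the chromosomes. ERF6 and ERF1A stand back to back on chromosome 4, 5041 bases apart with no annotated protein-coding gene between them. ERF2 and ERF5 stand back to back on chromosome 5 with AT5G47229, which had no reads, between them. Apart from members, 17 protein-coding genes flank the 10 members, and 9 of them had enough reads to be tested. ERF107 was the one called. The other 8 had log2 fold changes of -0.42 (AT4G17486, beside ERF6, edgeR adjusted p = 0.225) to 1.32 (AT4G34400, beside RRTF1, edgeR adjusted p = 0.445). Of the rest, 3 had a few reads and 5 had none.

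Upstream of the members, 1 of 20 tested genes of ethylene synthesis, perception and signalling passed the test. Of 14 ethylene synthesis genes 6 were tested and none was called by edgeR or DESeq2, with 2 at an unadjusted p under 0.05 and a median log2 fold change of -0.20. ACS6, the ACC synthase that MPK3 and MPK6 stabilise, is named here after its values were seen. It had 21.7, 16.6 and 17.1 CPM in memory plants, against 39.7, 34.9 and 120.8 CPM in wild type plants (log2 fold change -1.82, edgeR adjusted p = 0.278). Plant 24 stood far above the other plants in this gene too, and without it ACS6 was called lower (log2 fold change -1.01, edgeR adjusted p = 0.0180). Without plant 23 ACS6 was not called (log2 fold change -2.12, edgeR adjusted p = 0.220), and 1 other synthesis gene was called lower.

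Of the 14 genes of ethylene perception and signalling, all tested, 1 fell and 12 had negative values, with a median log2 fold change of -0.37. At an unadjusted p under 0.05 there were 5, ERS1, ETR2, CTR1, EIL1 and EBF2. The share of all genes tested at that limit is not given here. Each of the 5 was lower in every memory plant than in any wild type plant, as were 8.59% of all loci with a read. The gene that fell was the receptor gene ERS1, with 36.7, 37.3 and 40.6 CPM in memory plants, against 56.2, 72.9 and 63.0 CPM in wild type plants (log2 fold change -0.75, SE 0.15, edgeR adjusted p = 0.0222). Its highest wild type plant was 23, not 24, and without memory plant 31, 32 or 33 its adjusted p was 0.174, 0.137 or 0.110. The transcription factor gene EIN3 had 170.9, 174.5 and 167.6 CPM in memory plants, against 178.6, 198.4 and 182.9 CPM in wild type plants. Its groups were separate too, at a log2 fold change of only -0.13 (edgeR adjusted p = 0.754).

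Of 11 kinases and jasmonate regulators, all tested, 1 fell, and the median log2 fold change was -0.02. This was MKK9, a kinase that activates MPK3 and MPK6. It had 13.8, 13.04 and 17.1 CPM in memory plants, against 40.2, 28.9 and 60.9 CPM in wild type plants (log2 fold change -1.57, SE 0.26, edgeR adjusted p = 0.0138). Its order of wild type plants, with 24 highest and 23 lowest, was that of 7 members. Without memory plant 31, 32 or 33 its adjusted p was 0.108, 0.119 or 0.0810 (edgeR). MYC4, a jasmonate-regulated transcription factor gene named after its values were seen, lay the other way. It had 49.9, 72.8 and 51.2 CPM in memory plants, against 40.2, 31.0 and 31.6 CPM in wild type plants, with separate groups (log2 fold change 0.76, SE 0.18, edgeR adjusted p = 0.0579, and 0.0219 with no filter). It was called higher with no filter, by DESeq2 and without plant 23, and in none of the other alternatives. MPK6 itself had a log2 fold change of -0.01 (edgeR adjusted p = 0.984).

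Downstream, 3 PDF1.2 defensin genes, which ORA59 is known to activate, were lower as well. Of 8 defence targets 6 were tested, 3 fell, and the median log2 fold change was -1.30. PDF1.2C had 1.28, 2.61 and 0.461 CPM in memory plants, against 12.7, 10.03 and 10.8 CPM in wild type plants (log2 fold change -2.89, SE 0.42, edgeR adjusted p = 0.00546). PDF1.2B had 1.28, 1.61 and 1.84 CPM in memory plants, against 8.61, 6.94 and 16.8 CPM in wild type plants (log2 fold change -2.77, SE 0.42, edgeR adjusted p = 0.00681). PDF1.2A had 15.8, 27.1 and 13.4 CPM in memory plants, against 55.5, 50.1 and 44.8 CPM in wild type plants (log2 fold change -1.41, SE 0.23, edgeR adjusted p = 0.0115). Leaving out 1 memory plant ended calls, for PDF1.2A without plant 31 (adjusted p = 0.0982) or 33 (0.0810), for PDF1.2B without any of the 3 (0.0616 to 0.0642) and for PDF1.2C without plant 31 (0.0581, edgeR). The groups were separate in all 3 genes, whose coding sequences are near copies of each other, so that reads may be split among them. PR4, a chitin-binding defence protein gene, had a log2 fold change of -1.09 that did not pass the test (edgeR adjusted p = 0.104). Neither did PDF1.3 (-1.19, 0.186) nor the basic chitinase gene, whose groups overlapped (-0.60, 0.644). THI2.1, not tested, lay the other way, with 1.92, 2.81 and 1.38 CPM in memory plants, against 0.718, 0 and 1.91 CPM in wild type plants. In the fit with no filter its log2 fold change was 1.17 (edgeR adjusted p = 0.638). PDF1.1 had 0 or 1 read in every plant.

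2 of the 8 defence targets held a GCC box in the 300 bases before the gene start. Their promoters, PDF1.2A (chr5:17907639-17907938, - strand) and PDF1.2B (chr2:11088823-11089122, + strand), are shown with the GCC box in capitals because it is the element through which ORA59 is known to act.
PDF1.2A: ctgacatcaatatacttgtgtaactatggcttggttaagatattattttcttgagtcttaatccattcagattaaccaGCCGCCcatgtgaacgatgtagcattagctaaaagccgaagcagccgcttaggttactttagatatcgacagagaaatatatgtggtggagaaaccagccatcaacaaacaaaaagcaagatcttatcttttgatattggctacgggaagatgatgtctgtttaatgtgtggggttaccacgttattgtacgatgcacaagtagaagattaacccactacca
PDF1.2B: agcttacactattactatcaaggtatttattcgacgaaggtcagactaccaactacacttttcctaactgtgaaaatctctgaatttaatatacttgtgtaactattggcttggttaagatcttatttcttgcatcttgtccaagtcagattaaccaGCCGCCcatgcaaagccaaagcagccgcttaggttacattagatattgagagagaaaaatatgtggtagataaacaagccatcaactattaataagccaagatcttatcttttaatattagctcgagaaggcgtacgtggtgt
The longest run of identical bases in these windows was 22. PDF1.2C fell too, and no GCC box was counted in its window. That window opens with cccatgtgaac, which in PDF1.2A spans the end of the GCC box and the bases after it. A box at that position in PDF1.2C would be cut by the window edge, so its absence here is not informative.

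**Figure D4:**
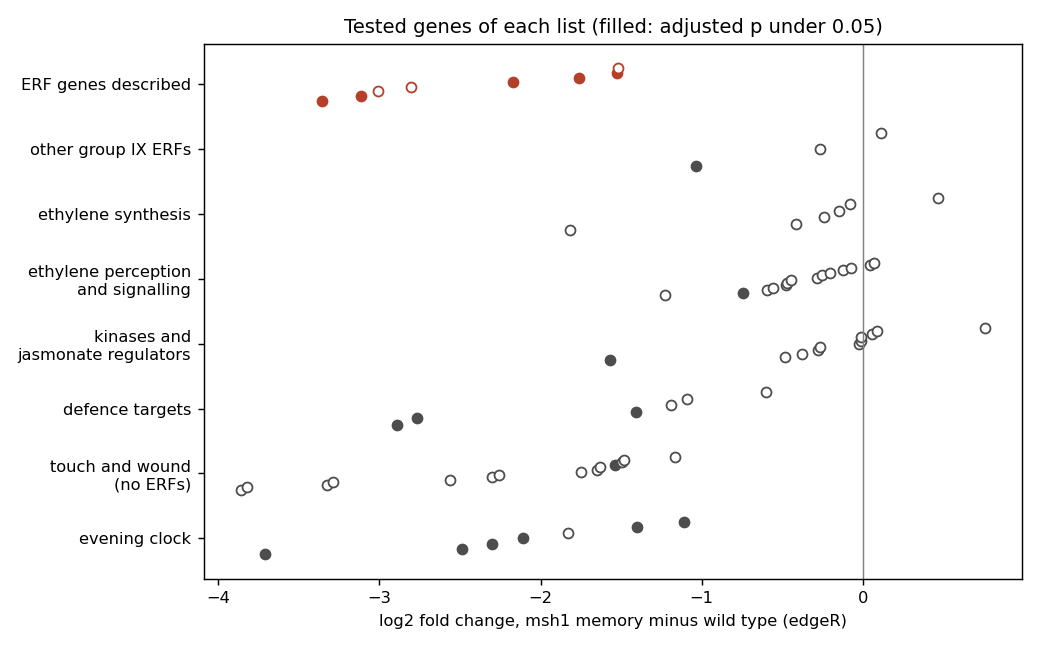
Log2 fold change (horizontal axis, memory minus wild type, edgeR) of every tested gene in the 10 described and in 7 related lists (rows), with filled points for an adjusted p under 0.05. The 8 tested members lie between -3.36 and -1.52. The 14 genes of ethylene perception and signalling lie between -1.23 and 0.067, and 12 of them are below 0.

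2 other lists are given here because their levels also differed between groups or among wild type plants. The rapid touch and wound genes other than ERFs (14, all tested) had negative values throughout and a median log2 fold change of -2.004, and 1 of them, the zinc finger gene SZF2, fell. SZF2 had 22.8, 23.7 and 29.3 CPM in memory plants, against 57.4, 52.4 and 110.0 CPM in wild type plants (log2 fold change -1.54, SE 0.29, edgeR adjusted p = 0.0343), and without plant 31, 32 or 33 its adjusted p was 0.173, 0.190 or 0.125. This list summed to 209.3, 196.8 and 224.1 CPM in memory plants, against 501.4, 407.6 and 1458 CPM in wild type plants, so that plant 24 again stood highest and plant 23 lowest among wild type plants. Without plant 24, 6 of the list were called lower by edgeR, and DESeq2 with all plants called 11.

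Of 8 evening clock genes 7 were tested and 6 fell, with a median log2 fold change of -2.11. The 4 with the smallest p were GRP7 (log2 fold change -2.30, edgeR adjusted p = 2.34e-05), PRR5 (-2.48, 3.99e-05), FKF1 (-3.71, 6.04e-05) and PRR3 (-2.11, 0.00373). These genes summed to 203.3, 176.0 and 223.9 CPM in memory plants, against 594.9, 760.5 and 700.3 CPM in wild type plants, with plant 23 the highest. The part that a touch or wound response, or the time of day, has in the members' difference was not tested.

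**Figure D5:**
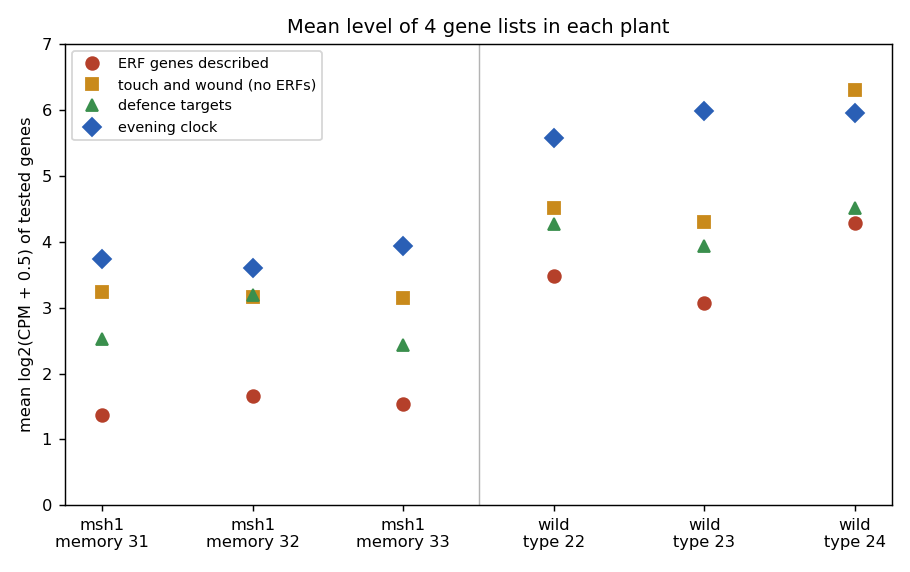
Mean log2(CPM + 0.5) of the tested genes of 4 lists (vertical axis) in each plant, memory plants on the left and wild type plants on the right. The members lie at 1.38, 1.65 and 1.54 in memory plants and at 3.48, 3.08 and 4.28 in wild type plants, and the touch and wound genes have their highest value, 6.30, in plant 24.

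Outside all lists, 5 genes had the profile over the 6 plants nearest to the members' mean, by the root mean square difference of centred log2 values among 14355 genes. They were AT1G15125 (0.0852), the jasmonate repressor gene JAZ1 (0.175), HSPRO2 (0.221), CNI1 (0.239) and AT5G50450 (0.242). The members' own differences from their mean ran from 0.314 in ERF1A to 0.679 in ERF13. These cannot be set against those of the 5 genes, which were picked for the smallest values. AT1G15125 had 17.3, 24.3 and 21.9 CPM in memory plants, against 75.5, 64.4 and 141.5 CPM in wild type plants, and it overlaps AT1G15120 in the annotation. JAZ1 had 16.2, 19.5 and 13.8 CPM in memory plants, against 58.5, 45.7 and 89.2 CPM in wild type plants. Both have plant 24 highest and plant 23 as the lowest wild type plant, as the members' mean does, which follows from how they were picked.

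The libraries were checked against their labels. MSH1 had 12.6, 13.04 and 16.8 CPM in memory plants, against 17.4, 12.5 and 12.2 CPM in wild type plants (log2 fold change 0.0090, SE 0.22, edgeR adjusted p = 0.991). Of 6 root markers, CASP1, COBL9 and RHD6, which define root tissue, had 0 to 2 reads in every plant although entire plants are labelled, and PYK10 had 10.02, 21.5 and 11.5 CPM in memory plants, against 20.6, 0.193 and 17.7 CPM in wild type plants. SCR and SHR, which shoots express as well, were present in every plant, SCR at 19.0 to 27.0 CPM in memory plants and 19.2 to 22.9 CPM in wild type plants, and SHR at 5.99 to 10.4 CPM in memory plants and 6.64 to 11.3 CPM in wild type plants. The 6 flower organ markers summed to 5.54 to 12.7 CPM in memory plants, against 2.15 to 6.77 CPM in wild type plants, with AP3 at 0 in every wild type plant. The part of tissue make-up in the members' difference was not tested. Plant 23 stood apart from the other plants on the first principal component, at 68.4 against -25.0 to -4.46 for the others.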

How the data were processed

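Per the labels, RNA of 6 plants was made into TruSeq v2 libraries, a kit without strand marking, for 150-bp reads. The authors deposited raw read counts per gene, 1 file per plant. TAIR10 and DESeq2 are named in the submitters' processing notes. For the aligner, the counting program and multiply mapped reads nothing is given in the sources used here. Positions, lengths and promoters come from TAIR10.1 by locus identifier (32835 of 33602 loci matched), since the files hold no coordinates.

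The counts were filtered in edgeR 4.0.16 (R 4.3.3) by filterByExpr with a minimum of 10 and a minimum total of 15, scaled by TMM and compared with the robust quasi-likelihood test (two-sided, all 6 plants, no covariates), with Benjamini-Hochberg adjustment over 16928 genes and a threshold of 0.05. CPM values are TMM-scaled, and SE was derived from the log2 fold change and its F statistic. The steps were tested on simulated data. Alternatives were other scalings, no filter, no robust estimation, DESeq2 1.42.0, limma voom (limma 3.58.1) and leaving out each plant. Replicates of a group differed by more than sampling noise (chi-square per degree of freedom at least 3.12).

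Members and gene lists were chosen with earlier results of these data known. Named genes are the members, up to 4 called genes per list with the smallest p, 5 genes of nearest profile (mean at least 5 CPM), the members' flanking genes and MSH1. Genes named beyond this rule were chosen after their values were seen. They are ACS6, RAP2.6L, EIN3, ETR2, CTR1, EIL1, EBF2, MYC4, MPK6, the defence targets not called, the other group IX and marker genes.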

Additional observations from a re-analysis of the deposited data

How the results depend on the processing

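Every member had a negative log2 fold change in every alternative in which it was tested, and no called value reversed. Of the members, DESeq2 called 8 and limma voom 1, against 5 in edgeR, and leaving out each plant in turn gave 0 to 7. The 0 was found without memory plant 31, 32 or 33, and leaving out wild type plant 22 left 3. The cause was not tested. Over all genes, 308 were called, 524 by DESeq2 and 34 to 1020 with 1 plant left out. The related lists held 13 calls, 26 with DESeq2 and 5 to 20 with 1 plant left out. The members' median of -2.49, over 8 members, ranged from -3.14 (without plant 23) to -2.13 (without plant 24). These 2 medians are over 7 members, without ERF13, so part of the shift can come from the change of genes. With no filter and without plant 24, chosen after seeing the data, the lists held 21 calls and the median over all 10 members was -2.09. With library totals, 64% of all calls were lower (174 against 98 higher), against 75.3% with TMM, and ORA59 was no longer called (edgeR adjusted p = 0.0616). No paired analysis was possible because the groups share no plant numbers. Counts of 0 to 8 reads limit ERF1, ERF13 and RRTF1 in memory plants. Called members with nearly as few reads in memory plants 31, 32 and 33 were ORA59 (6, 9 and 7), ERF1A (6, 7 and 8) and ERF105 (3, 9 and 5).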
